A study of Mus musculus with 11 samples.

Results

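The genes described here encode the machinery of intraflagellar transport (IFT) and the BBSome, 32 genes chosen by name from the subunits of both complexes and their motor. Of these, 31 were measured among the 18194 genes of the mouse heart arrays, and Arl6 was not analysed here. Expression was measured with Affymetrix arrays in total RNA from left ventricles of C57BL/6 mice. The groups were 3 HMGN5 transgenic adult, 3 control adult, 3 HMGN5 transgenic newborn and 2 control newborn hearts, each array a biological replicate per the labels. The transgene places a FLAG-tagged mouse Hmgn5 cDNA under the CAG promoter, silenced by a floxed LacZ cassette. LacZ was removed in the heart with alphaMHC-cre, whose promoter is active in cardiomyocytes, so that the transgene of other cell types of the ventricle is not released by this cre. Control hearts were labelled wild-type, and whether they carried the cre alone is not given in the labels. The age of the adults, whether newborn ventricles were pooled and how many founder lines were used are not given either.

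Cilia are built and kept up by trains of IFT particles that move along the axoneme. IFT-B trains carry tubulin and other cargo outward with kinesin-2, IFT-A trains return with the dynein-2 motor, and the BBSome links membrane proteins such as signalling receptors to the trains. Primary cilia are known on cells of the embryonic heart and on cardiac fibroblasts, where they serve hedgehog signalling among other pathways. The measured genes fall into 6 IFT-A subunits, 14 IFT-B subunits, 2 dynein-2 subunits, 7 BBSome subunits and the 2 chaperonin-like proteins Bbs10 and Bbs12, which help to assemble the BBSome.

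Values are the deposited log2 expression values of 1 probe set per gene, the one with the highest mean over the 11 arrays among those annotated with a single gene. Differences are between group means on the log2 scale, tested with limma across all genes. Genes with an adjusted p under 0.05 (Benjamini-Hochberg) are said to be called, and limma gave every adjusted p below. All 31 measured members passed a filter on low values that 77.2% of all genes passed. Values of different probe sets have no common scale, so each gene is compared with itself across groups.

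The array medians were between 5.12 and 5.18. The mean of the 3 probe sets for 18S ribosomal RNA was 12.18 and 11.89 on replicate 3 of the transgenic and control adults, against 7.64 to 8.58 on the other 4 adult arrays. It was 10.05 to 10.53 on the newborn arrays. The labels name no processing batch, so whether these levels reflect processing is not known. Any difference in processing between the ages could not be told apart from age. Where adult replicate 3 is set apart or used as a batch factor below, this rests on the 18S signal alone. The 10 cardiomyocyte markers were high on every array, with a median of 13.5 to 13.9. The Hmgn5 probe set was not higher in transgenic hearts (adult difference -0.16, SE 0.14, adjusted p = 0.647; newborn difference -0.13, SE 0.16). The mean of the atrial markers Myl4, Myl7 and Sln was 10.53, 6.59 and 6.52 in the transgenic adults, against 10.10, 10.38 and 12.24 in the control adults, and 12.50 to 12.87 in all newborns. In RNA from whole ventricle, fewer cells of a type and less RNA per cell cannot be told apart.

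**Figure D1:**
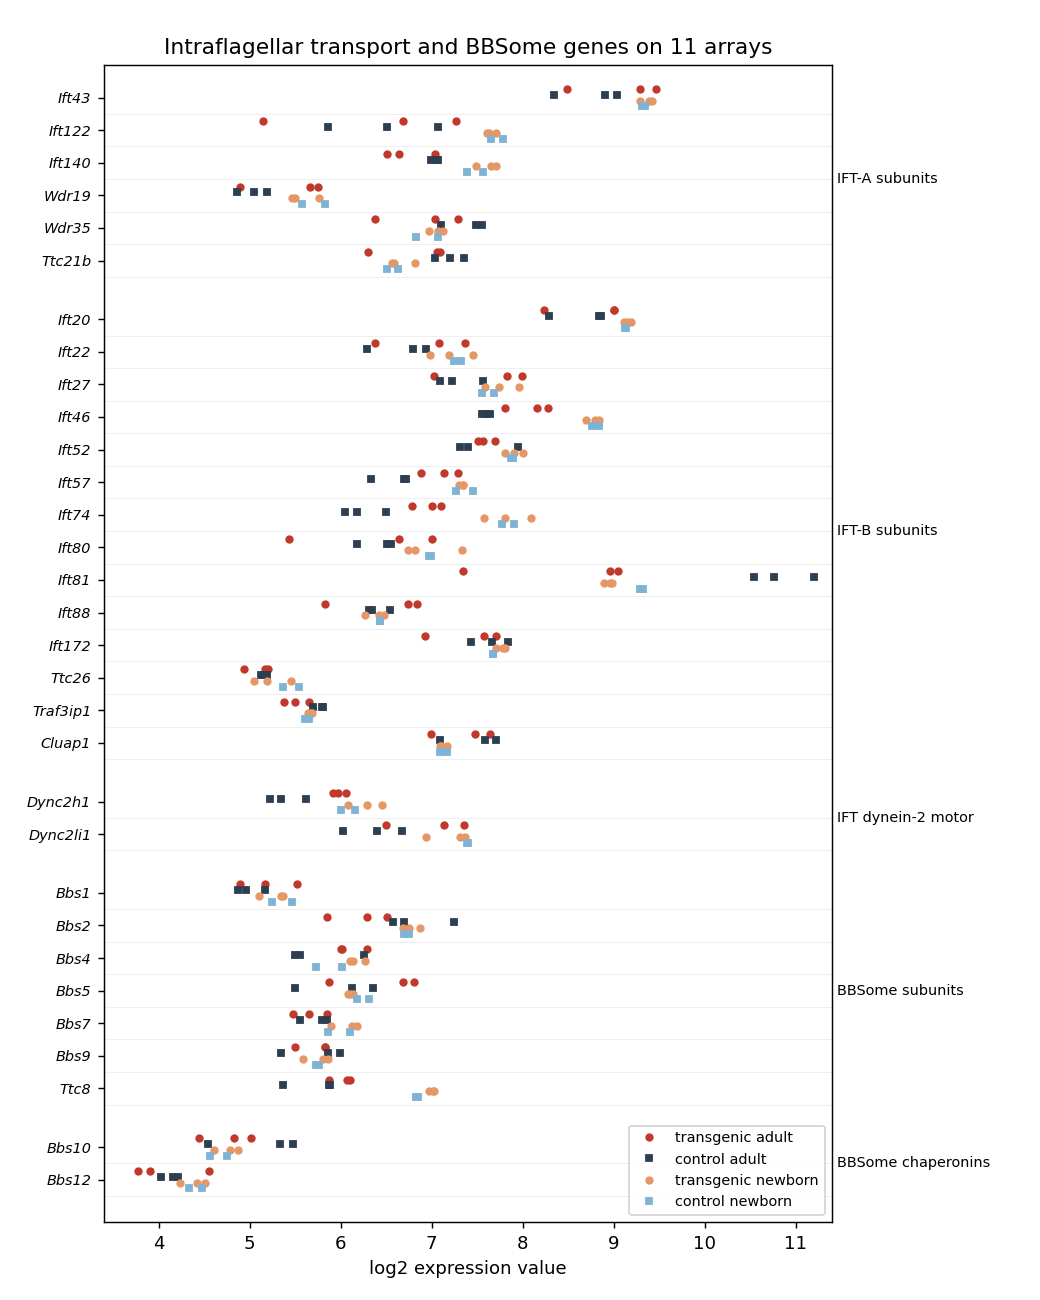
Log2 expression value (x axis) of each of the 31 measured genes (rows, by complex) on each of the 11 arrays, 1 point per array, coloured by group. Ift81 stands out by its spread, from 7.35 to 11.20, and most other genes lie within a narrower band with transgenic and control arrays mixed.

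The adult hearts scattered more than the newborn hearts. The median SD of the 31 genes within a group was 0.34 in transgenic adults and 0.24 in control adults, and 0.11 and 0.08 in transgenic and control newborns. Over all genes the median SD was 0.20, 0.18, 0.10 and 0.08 in the same order of groups. Part of the adult scatter lay in replicate 3, the array with high 18S signal. It was the lowest of the transgenic adults for 27 of the 31 genes (87.1%, against 52.6% of all genes) and the lowest of the control adults for 20 (64.5%, against 46.6%). The IFT-A subunit Ift122 had the widest scatter in both adult groups, at 6.68, 7.27 and 5.15 in transgenic and 7.07, 5.86 and 6.51 in control adults. The contribution of the 18S difference to these values was not tested.

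In adult hearts 5 of the 31 genes were called between transgenic and control mice, and all 5 belong to IFT-B or the dynein-2 motor. Ift81 was lower in the transgenic adults, and Ift74, Ift57, Ift46 and Dync2h1 were higher. The 5 make up 16.1% of the 31 genes, against 7.09% of all genes called in this comparison. Among 15 further IFT and BBSome genes outside the 31, described below, 0 were called. By direction, 12.9% of the 31 were called higher (background 4.16%) and 3.23% lower (background 2.93%). The median difference of the 31 genes was 0.04, against 0.00 over all genes, with 16 genes above 0 and 15 below. The 2 sets of adult arrays were not alike in this. Within replicates 1 and 2 the difference was above 0 for 20 of the 31 genes, and within replicate 3 for 12. Its sign was the same in both sets for 21 genes. At an unadjusted p under 0.05, limma gave 10 of the 31 and 3669 of the 18194 genes.

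Ift81 encodes an IFT-B core subunit that pairs with Ift74 and binds tubulin cargo. RefSeq also lists it as Cdv1, an older name that refers to carnitine deficiency and to expression in the heart ventricle. On the probe set of highest mean it read 9.05, 8.96 and 7.35 in the transgenic adults, against 10.76, 11.20 and 10.54 in the control adults. Every transgenic adult array lay more than 1 log2 unit below every control adult array. The means were 8.45 ± 0.96 and 10.83 ± 0.34 (SD, n = 3 each), a difference of -2.38 (SE 0.37, 95% interval -3.19 to -1.57, adjusted p = 0.00329), or 5.21-fold lower in transgenic adults.

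A second probe set of Ift81 showed the same order. It read 8.40, 8.09 and 6.90 in the transgenic adults, against 9.90, 10.59 and 9.61 in the control adults. Its difference of -2.23 was called when all 34958 single-gene probe sets were tested side by side (adjusted p = 0.0065, with 4.61% of those probe sets called). The third probe set read between 3.73 and 4.27 on all adult arrays and was not called (difference -0.22, adjusted p = 0.423).

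The lower level of Ift81 was present in both sets of adult arrays. The difference was -1.98 between the means of replicates 1 and 2 and -3.19 between the replicate 3 arrays of high 18S signal. Leaving out any 1 of the 11 arrays did not end the call. It was lost when the level of the atrial markers was a covariate, with a difference of -1.95 and a wider SE of 0.52 (adjusted p = 0.112). The atrial level was 10.53, 6.59 and 6.52 on the transgenic adult arrays with Ift81 at 9.05, 8.96 and 7.35, and 10.10, 10.38 and 12.24 on the control adult arrays with Ift81 at 10.76, 11.20 and 10.54. The part of atrial RNA in the Ift81 difference was not tested.

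**Figure D2:**
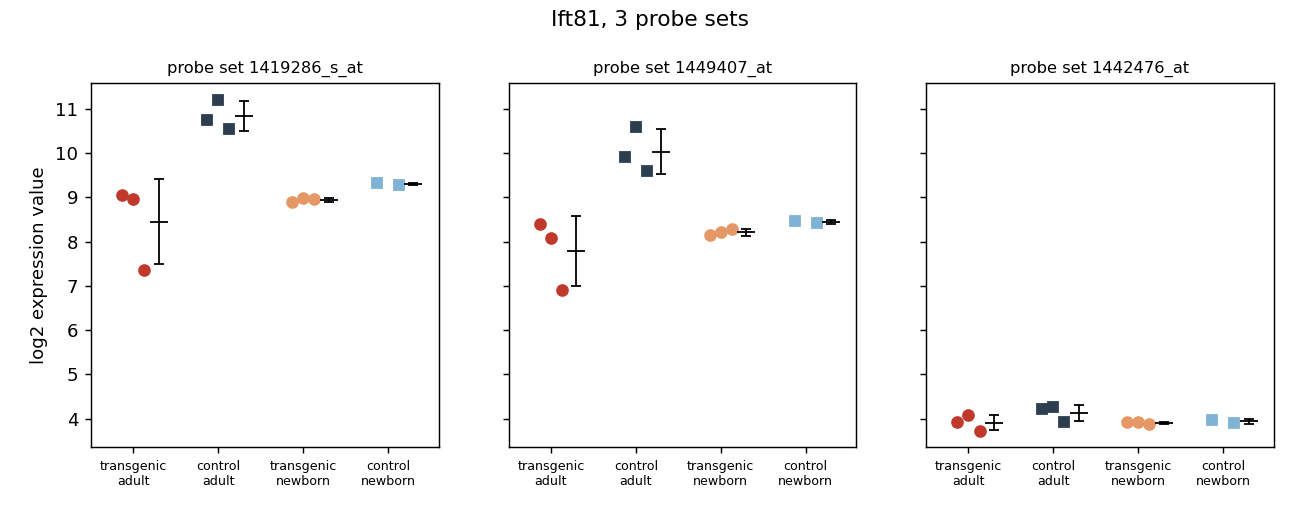
Log2 expression value of the 3 probe sets of Ift81 (panels) by group; points are arrays, horizontal lines group means and bars 1 SD. On the first 2 panels the transgenic adult arrays lie below the control adult arrays, with newborn arrays between 8.14 and 9.32; the third panel stays between 3.73 and 4.27.

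Of the 4 genes called higher in transgenic adults, 3 are IFT-B subunits. Ift74, the partner of Ift81, read 6.79, 7.01 and 7.10 in the transgenic adults, against 6.50, 6.18 and 6.04 in the control adults (difference 0.73, SE 0.16, adjusted p = 0.0213). The groups did not overlap, and the gap was 0.56 in replicates 1 and 2 and 1.06 in replicate 3. On these probe sets the RNA signals of Ift81 and Ift74 thus differed in opposite directions between transgenic and control adults. The arrays do not measure the protein pair.

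Ift57, a peripheral IFT-B subunit that helps to couple trains to kinesin-2, read 7.29, 7.13 and 6.88 in the transgenic adults, against 6.71, 6.69 and 6.33 in the control adults (difference 0.52, SE 0.14, adjusted p = 0.047). Its second, dimmer probe set differed by -0.18 and was not called, and the mean of both probe sets was not called either (difference 0.17, adjusted p = 0.476). Ift46, a core subunit known in the green alga Chlamydomonas for carrying outer dynein arms into the flagellum, read 8.28, 7.81 and 8.16 in the transgenic adults, against 7.64, 7.59 and 7.55 in the control adults (difference 0.49, SE 0.13, adjusted p = 0.0416). All transgenic values of both genes lay above all control values.

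The heavy chain of the return motor, Dync2h1, read 6.06, 5.91 and 5.97 in the transgenic adults, against 5.35, 5.22 and 5.62 in the control adults (difference 0.59, SE 0.13, adjusted p = 0.0235). These groups did not overlap either. Its light intermediate chain Dync2li1 had a difference of similar size, 0.63 (SE 0.23), but its arrays overlapped, at 7.35, 7.13 and 6.49 in transgenic and 6.39, 6.67 and 6.02 in control adults, and it was not called (adjusted p = 0.136). Over the 31 genes, 4 had all transgenic adult arrays above the controls (12.9%, against 10% of all genes) and 3 had all below (9.68%, against 7.94%).

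The 4 higher calls were lost under more of the alternatives than that of Ift81. Without transgenic adult replicate 3, 9 genes were called, and the 8 higher ones were Ift43, Wdr19, Ift27, Ift57, Ift74, Dync2h1, Dync2li1 and Bbs5. With only the 6 adult arrays in the fit, Ift81 alone was called (adjusted p = 0.048). Ift74 was not called without transgenic adult replicate 2 (adjusted p = 0.0605), control adult replicate 2 (0.0794) or control adult replicate 3 (0.0716). Dync2h1 was not called without transgenic adult replicate 1 (adjusted p = 0.0736), control adult replicate 1 (0.055) or control adult replicate 2 (0.0935). Ift46 lost its call without any single array but transgenic adult replicate 2 (adjusted p 0.0614 to 0.122). Ift57 lost its call without any but transgenic adult replicate 3 or control adult replicate 1 (0.071 to 0.139). Without both adult arrays of high 18S signal, Ift74 (difference 0.56, adjusted p = 0.0721) and Ift46 (0.42, adjusted p = 0.102) were not called. Ift57 and Dync2h1 kept their calls in that fit.

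**Figure D3:**
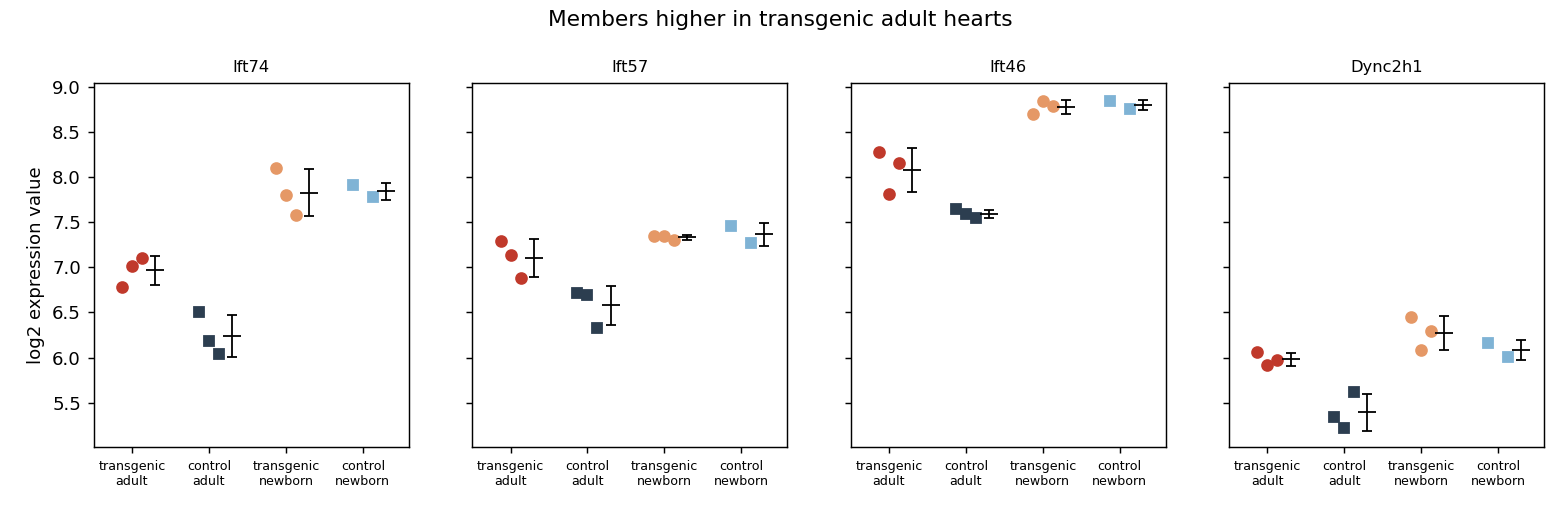
Log2 expression value of Ift74, Ift57, Ift46 and Dync2h1 (panels) by group; points are arrays, horizontal lines group means and bars 1 SD. Transgenic adult arrays lie above control adult arrays in each panel, and the 2 newborn groups overlap in each.

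Both Ift57 and Ift74 hold an X-box-like motif in the promoter window of RefSeq's table (GRCm38.p6). The X-box is the binding sequence of RFX factors, known regulators of cilium genes. The motif searched was GTNNCC followed by NGNAAC on either strand, with 1 base between them (found in 1.56% of 32851 promoter windows) or 2 bases (2.17%). Either form was found in 3.68% of all windows and in 7 of 29 windows of the IFT and BBSome genes (24.1%), which represent 28 genes; the 7 were those of Ift22, Ift57, Ift74, Ttc26, Bbs1, Bbs4 and Bbs7. The match is a description of letters, not of binding. The 2 called genes are shown with 2 that were not called, 5′ to 3′ on the gene's strand with the motif in capitals. Relative to the annotated start, the shown motif began at -60 in Ift57 (chr16:49699226-49699255, plus strand), at -5 in Ift74 (chr4:94614478-94614507, plus strand), at -33 in Ttc26 (chr6:38381483-38381512, plus strand) and at -121 in Bbs7 (chr3:36613489-36613518, minus strand).
Ift57: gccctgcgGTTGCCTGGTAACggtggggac
Ift74: cggtgaccGTTGCTAGGATACgcggcgtcg
Ttc26: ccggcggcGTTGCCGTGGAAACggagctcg
Bbs7: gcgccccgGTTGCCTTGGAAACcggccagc
In Ift57, Ttc26 and Bbs7 the shown letters match on both strands, and in Ift74 on the strand opposite to the one printed alone. Ift57 holds a second match at -87 with 2 bases between the parts, not printed here. Ttc26 (adult difference -0.06) and Bbs7 (-0.07) carry the motif and were not called, and of the 7 genes with it only Ift57 and Ift74 were called in adults. Ift81 had no promoter window and was not searched.

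None of the 6 IFT-A subunits was called in adults, with differences from -0.48 (Wdr35) to 0.40 (Wdr19). The smallest p was that of Ift140, a core subunit of the return train, which read 6.64, 7.03 and 6.51 in the transgenic adults, against 7.07, 6.99 and 7.06 in the control adults (difference -0.31, SE 0.14, adjusted p = 0.232). Of its transgenic values 2 lay below all controls and the third among them, and 2 of the 6 IFT-A subunits had an unadjusted p under 0.05. Among the 10 IFT-B subunits not called, differences ran from -0.26 (Traf3ip1, which binds microtubules) to 0.32 (Ift27, a small GTPase needed for the exit of the BBSome from cilia).

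None of the 7 BBSome subunits was called in adults either, and 1 of the 7 (Bbs2) had an unadjusted p under 0.05. Bbs2 read 6.29, 6.51 and 5.85 in the transgenic adults, against 6.70, 7.24 and 6.58 in the control adults (difference -0.62, SE 0.19, adjusted p = 0.0856). All 3 transgenic values lay below all control values. It was called with replicate 3 of the adults as a batch factor (adjusted p = 0.0122). The other 6 subunits differed by -0.07 (Bbs7) to 0.46 (Bbs5), and Bbs10 and Bbs12 by -0.36 and -0.05. Bbs10 read 4.82, 5.02 and 4.44 in the transgenic adults, against 5.33, 5.48 and 4.55 in the control adults (adjusted p = 0.455), with overlap. Its second probe set, of similar level, differed by -0.64 and was not called when all probe sets were tested (adjusted p = 0.105). Without the adult arrays of high 18S signal, Bbs10 was called lower (difference -0.48, adjusted p = 0.0445).

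Other genes of the cilium were mostly not called in adults. No gene was called among 15 further IFT and BBSome genes, 16 transition zone genes, which guard the base of the cilium, 14 genes of the basal body and centriolar satellites, 11 hedgehog pathway genes, 8 RFX and FOXJ1 regulators, 9 genes of cilium disassembly and 19 genes of motile axonemes. At an unadjusted p under 0.05, limma gave 4, 2, 1, 1, 0, 4 and 0 genes of these lists in the order named. The kinesin-2 subunits Kif3a, Kif3b and Kifap3 differed by 0.43, 0.25 and -0.11. The exception was the list of 11 genes for membrane cargo and trafficking to the cilium (median difference of the list 0.35). Of these 4 were called higher and 0 lower, against 4.16% and 2.93% of all genes.

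Rab3ip, the exchange factor that activates Rab8 for ciliary membrane delivery, averaged 9.34 in transgenic and 8.61 in control adults (difference 0.74, adjusted p = 0.00277). Rab23, a small GTPase that restrains hedgehog signalling, averaged 7.50 in transgenic and 6.74 in control adults (difference 0.76, adjusted p = 0.00872). Gpr161, a receptor of the ciliary membrane with the same effect on hedgehog signalling, averaged 5.30 in transgenic and 4.54 in control adults (difference 0.77, adjusted p = 0.0183). The fourth, Rab11a, is a GTPase of recycling endosomes (difference 0.52, adjusted p = 0.0326).

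Some markers of cells other than cardiomyocytes also differed between the adult groups (background over all genes 4.16% called higher and 2.93% lower). The summed level of a list is the log2 of its summed linear values, in which the brightest probe sets weigh most. For 10 fibroblast markers it was 14.37 to 14.70 in transgenic and 13.70 to 14.41 in control adults. Their median difference was 0.42, and 1 marker was called, Tcf21 (higher). Of 9 macrophage markers, 4 were called higher and 0 lower, and their summed level was 12.58 to 13.32 in transgenic and 12.38 to 12.65 in control adults. Of 7 epicardial markers 1 (Wt1) was called higher, and of 10 endothelial markers 1 (Kdr) was called lower. Of 8 mural cell markers 2 were called higher and 2 lower, and no marker of cycling cells, adipocytes, neural cells or cardiomyocytes was called. The adipocyte marker Ucp1 read 7.62 on control adult replicate 3, against 3.43 to 3.91 on all other arrays. The part of cell makeup in the differences of Ift74, Ift57, Ift46, Dync2h1 and Ift81 was not tested.

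In newborn hearts 0 of the 31 genes were called between transgenic and control mice, as were 0% of all genes. At an unadjusted p under 0.05, limma gave 0 of the 31 and 198 of the 18194 genes. The differences ran from -0.36 (Ift81) to 0.30 (Bbs4, a BBSome subunit that also sits at centriolar satellites), and each adjusted p was 0.999985. The half-width of the 95% interval had a median of 0.47 over the 31 genes. For the genes that were higher in transgenic adults, the newborn intervals were -0.42 to 0.38 (Ift74), -0.38 to 0.31 (Ift57), -0.33 to 0.29 (Ift46) and -0.14 to 0.52 (Dync2h1).

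Ift81 read 8.89, 8.98 and 8.96 in the transgenic newborns, against 9.32 and 9.29 in the control newborns (difference -0.36, SE 0.41, 95% interval -1.26 to 0.54). Its SD was 0.05 in transgenic and 0.02 in control newborns. The SE and interval rest on a spread shared with the adults, whose SD was 0.96 in transgenic hearts. The arrays did not overlap, which was also so for the second probe set, with 8.14, 8.21 and 8.29 in transgenic and 8.47 and 8.41 in control newborns. Bbs4 read 6.27, 6.14 and 6.10 in the transgenic newborns, against 6.02 and 5.73 in the control newborns. Such separation was found for 3 genes above the controls (Ift172, Bbs4 and Ttc8) and 3 below (Ift81, Dync2li1 and Bbs5), each 9.68% of the 31, against 11.1% above and 9.83% below over all genes.

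The other genes with the smallest newborn p of their groups were Ift140, Ttc26, Dync2h1 and Bbs10. Ift140 read 7.66, 7.71 and 7.49 in the transgenic newborns, against 7.56 and 7.39 in the controls. Ttc26, an IFT-B subunit, read 5.45, 5.19 and 5.04 in the transgenic newborns, against 5.54 and 5.37 in the controls. Dync2h1 read 6.45, 6.08 and 6.29 in the transgenic newborns, against 6.16 and 6.01 in the controls. Bbs10 read 4.78, 4.61 and 4.87 in the transgenic newborns, against 4.56 and 4.76 in the controls. Transgenic and control arrays overlapped for all 4.

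The difference between the adult and the newborn transgenic effect was tested for each gene. It passed for 0 of the 31 genes, against 0.687% of all genes (0.445% upward, 0.242% downward), and 6 of the 31 had an unadjusted p under 0.05, as had 1819 of the 18194 genes. For Ift81 the adult minus the newborn effect was -2.02 (SE 0.55, adjusted p = 0.156). That difference was called without the transgenic adult replicate 3, at -1.47 (adjusted p = 0.00816), and without both adult arrays of high 18S signal, at -1.61 (adjusted p = 0.00223). For Ift74, Ift57, Ift46 and Dync2h1 it was 0.74, 0.56, 0.51 and 0.40, with adjusted p from 0.268 to 0.582. An effect confined to adults is thus not shown for these 4. It is not shown for Ift81 either, whose difference was not called in the reported fit. In newborns Ift81 was also lower in transgenic hearts, without overlap of the arrays. In the other complexes the smallest p belonged to Dync2li1 (difference 0.83, adjusted p = 0.431), Bbs2 (-0.67, 0.47), Ift140 (-0.45, 0.507) and Bbs10 (-0.45, 0.792).

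**Figure D4:**
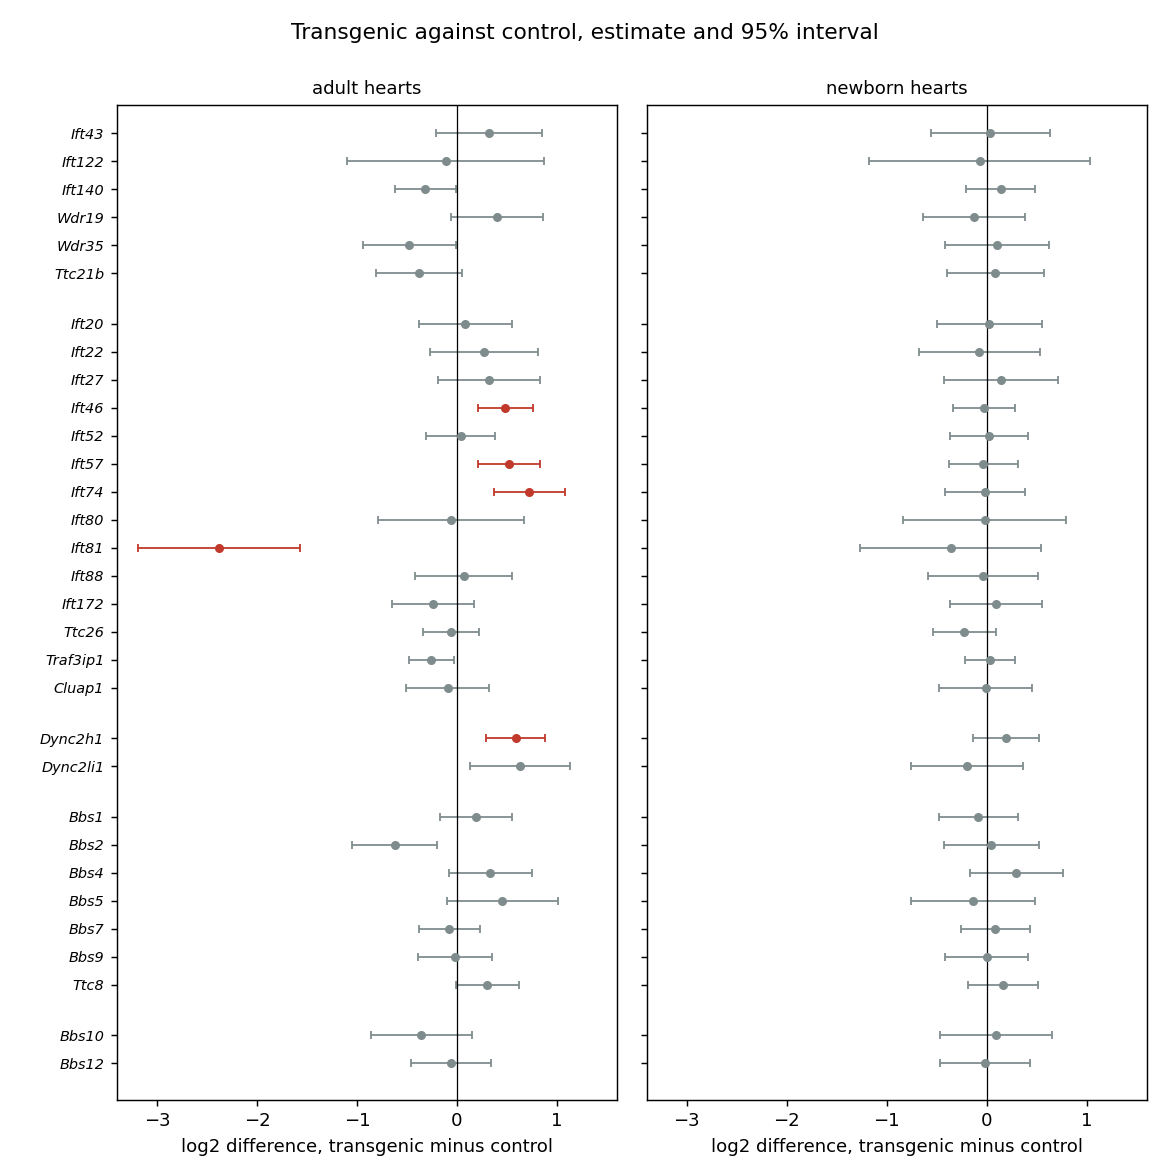
Difference of group means, transgenic minus control (x axis, log2), for each of the 31 genes in adult (left) and newborn (right) hearts; points are limma estimates, bars 95% intervals, and red marks genes with adjusted p under 0.05. The 5 red genes are all in the adult panel, and every newborn interval spans 0.

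By group means, the IFT and BBSome genes were on balance lower in adult than in newborn hearts, in both genotypes. In transgenic hearts 26 of the 31 genes were below 0 (adult minus newborn), and in control hearts 24 of 31, against 42.3% and 42.6% of all genes. The median difference was -0.26 in transgenic and -0.33 in control hearts, against 0.09 over all genes in both. The sign of both medians was kept under cyclic loess normalisation (-0.18 and -0.27) and a common array median (-0.27 and -0.34). Both rescalings kept the adult arrays of high 18S signal, on which the transgenic count and median in part depend. That transgenic array was the lowest of its group for 27 of the 31 genes. Its median difference from the mean of the other transgenic adult arrays was -0.55, against -0.13 over all genes. For the control array these medians were -0.28 and -0.08. Counts below 0 without these arrays are not given here. The genotypes are given side by side, and a test of the age effect between them is the same as the difference tested above.

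In transgenic hearts 7 of the 31 genes were called with age (22.6%, against 39.4% of all genes), all 7 lower in adults (background 19.7%). In control hearts 9 were called (29%, against 33% of all genes), 2 higher in adults (6.45%, background 14.9%) and 7 lower (22.6%, background 18.1%). The shares called are thus near or below the background. The arrays of the ages did not overlap, with adults lower, for 12 genes in transgenic hearts (38.7%, background 24.7%) and 17 in control hearts (54.8%, background 28.5%). Adults were above newborns without overlap for 0 genes in transgenic hearts (background 30%) and 4 in control hearts (12.9%, background 35.1%).

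The genes called lower in adults in both genotypes were Ift74, Ift46 and Ttc8. Ift74 read 8.10, 7.80 and 7.58 in transgenic and 7.91 and 7.78 in control newborns, all above the adult values given before. The difference was -0.86 in transgenic hearts (SE 0.16, adjusted p = 0.00214) and -1.60 in control hearts (SE 0.18, adjusted p = 8.76e-05). Ift46 read 8.70, 8.84 and 8.79 in transgenic and 8.84 and 8.76 in control newborns, again above every adult value. The difference was -0.69 in transgenic hearts (SE 0.13, adjusted p = 0.00167) and -1.20 in control hearts (SE 0.14, adjusted p = 0.000107).

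Ttc8, a BBSome subunit, read 6.10, 6.07 and 5.87 in transgenic adults, against 7.01, 6.97 and 7.02 in transgenic newborns (difference -0.99, SE 0.14, adjusted p = 0.00038). In controls it read 5.87, 5.37 and 5.88 in adults, against 6.85 and 6.83 in newborns (difference -1.13, SE 0.16, adjusted p = 0.000363). The ages did not overlap in either genotype. With the atrial markers as a covariate, Ift74 alone of the 7 transgenic calls was kept. For Ttc8 the difference was then -0.76 (SE 0.27, adjusted p = 0.103). The atrial level itself differed with age, at 10.53, 6.59 and 6.52 in transgenic adults against 12.50 to 12.87 in transgenic newborns. This fit therefore cannot tell age and atrial RNA apart.

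Ift81 was 1 of the 2 genes called higher in adult than in newborn control hearts (difference 1.53, SE 0.41, adjusted p = 0.0159), at the values given above. This call was lost without control adult replicate 2 (adjusted p = 0.0529), control newborn replicate 1 (0.0919) or control newborn replicate 2 (0.0797). In transgenic hearts the difference was -0.49 (adjusted p = 0.299), and transgenic adults overlapped with transgenic newborns. The second probe set gave 1.59 in control and -0.41 in transgenic hearts. The adult comparison of genotypes and the age comparison in controls share the 3 control adult arrays, so the 2 results are not independent.

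The other genes called with age in control hearts were Ttc21b, an IFT-A subunit, higher in adults (difference 0.63), and Dync2li1, Ift57, Dync2h1 and Wdr19, lower (differences -1.04, -0.79, -0.69 and -0.66). Dync2li1 read 6.39, 6.67 and 6.02 in control adults, against 7.39 and 7.41 in control newborns, without overlap (adjusted p = 0.0102). Ttc21b read 7.36, 7.04 and 7.20 in control adults, against 6.63 and 6.51 in control newborns, also without overlap (adjusted p = 0.0476). In transgenic hearts the same 5 genes differed by 0.16, -0.21, -0.23, -0.29 and -0.14, and none was called. The control call of Dync2li1 was lost without control newborn replicate 1 or 2 (adjusted p = 0.0691 and 0.0594) and that of Dync2h1 without control newborn replicate 1 (0.0668). That of Ttc21b was lost without any 1 control adult or newborn array (0.0572 to 0.187), and that of Wdr19 without any 1 array but transgenic adult replicates 1 and 3 (0.0507 to 0.276). The call of Ift57 was lost with the mean of its probe sets (difference -0.15).

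The genes called with age in transgenic hearts alone were Ift122 (difference -1.28), Ift140 (-0.89), Bbs2 (-0.56) and Bbs7 (-0.41). Their differences in control hearts were -1.24, -0.43, 0.12 and -0.25. Ift140 read 6.64, 7.03 and 6.51 in transgenic adults, against 7.66, 7.71 and 7.49 in transgenic newborns (adjusted p = 0.000653), and the ages did not overlap. Ift122 read 7.70, 7.63 and 7.61 in transgenic newborns, above all transgenic adult values. Without the low adult replicate 3 its difference was -0.67 (adjusted p = 0.0721), and its call was also lost without transgenic adult replicate 1, control adult replicate 3 or any newborn array (0.0512 to 0.104). Its second probe set gave -1.23 in transgenic and -1.12 in control hearts, called in both when all probe sets were tested (adjusted p = 0.0118 and 0.0331). The call of Bbs2 was lost without transgenic adult replicate 1 or 3 or any newborn array (0.0604 to 0.116), and that of Bbs7 without replicate 1 or 3 of the transgenic adults or newborns (0.0849 to 0.119).

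**Figure D5:**
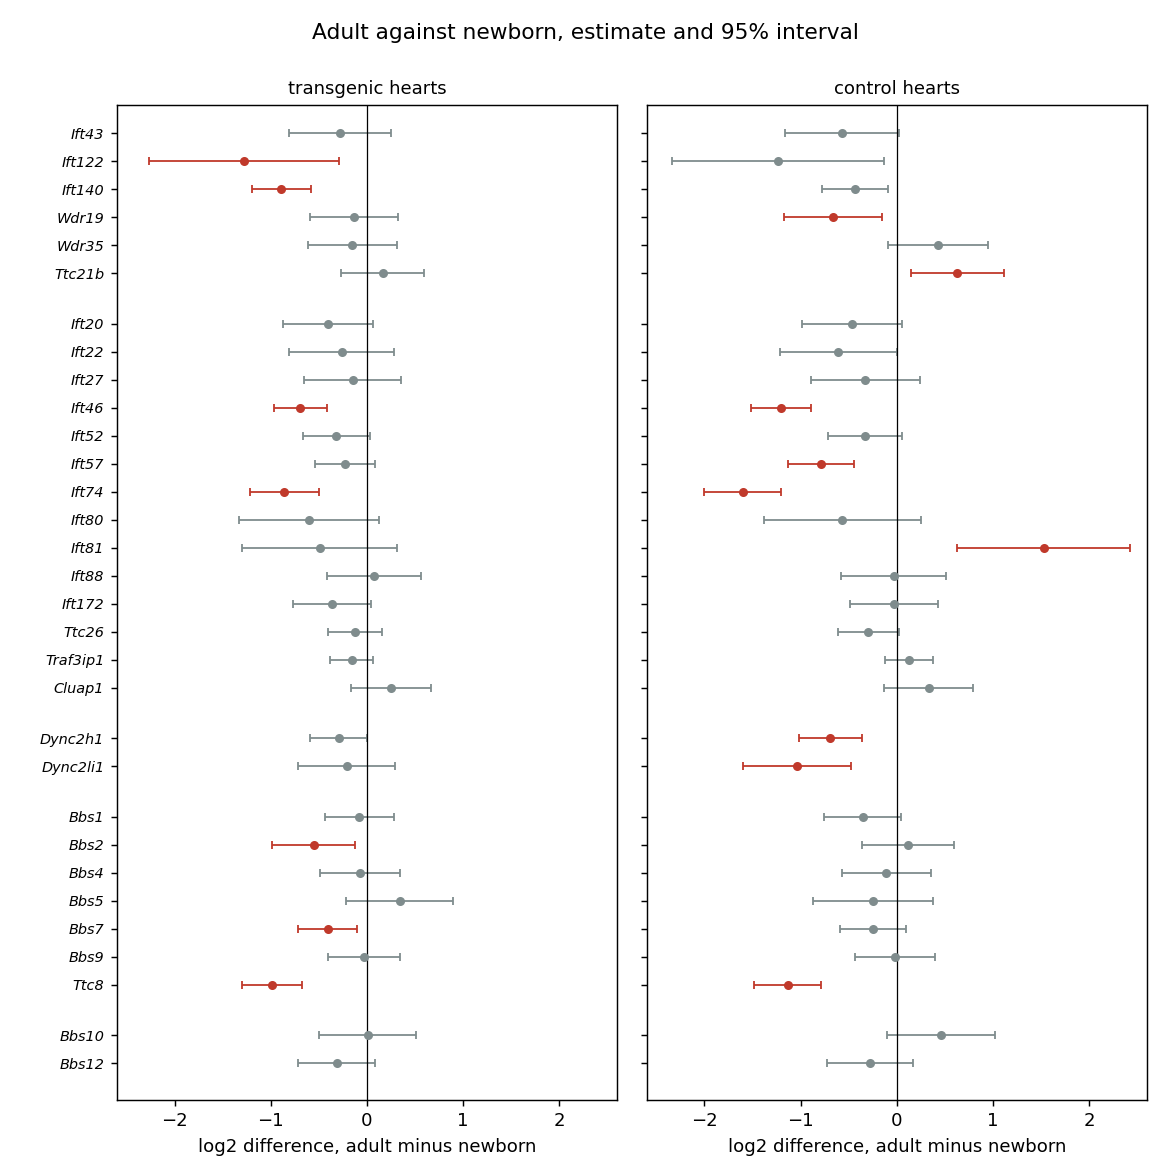
Difference of group means, adult minus newborn (x axis, log2), for each of the 31 genes in transgenic (left) and control (right) hearts; points are limma estimates, bars 95% intervals, and red marks genes with adjusted p under 0.05. Points lie left of 0 for 26 genes in the left panel and 24 in the right, and Ift81 lies right of 0 only in control hearts.

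Among other genes of the cilium, most calls with age in 4 lists were lower in adults. For these and the lists below, the background over all genes was 19.7% higher and 19.7% lower in transgenic hearts. In control hearts it was 14.9% higher and 18.1% lower. Of 16 transition zone genes 5 were lower and 0 higher in each genotype, Tctn1, Nphp4, Cc2d2a and B9d2 among them in both. Of 14 basal body and satellite genes 8 were lower in transgenic and 5 in control hearts, with 0 higher in either. Odf2, a protein of the basal body appendages, differed by -1.44 in transgenic and -1.34 in control hearts, and Pcm1, the scaffold of the satellites, by -1.26 in transgenic and -1.09 in control hearts.

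Of the 11 hedgehog pathway genes 5 were lower and 0 higher in transgenic hearts, and 6 lower and 1 higher in control hearts. The transducer Smo differed by -1.40 in transgenic and -1.62 in control hearts, the receptor Ptch1 by -1.29 and -1.40, and the transcription factor Gli3 by -1.23 and -1.01. Of the 9 cilium disassembly genes 8 were lower in transgenic and 7 in control hearts, with Aurka, the kinase that starts disassembly, at -3.73 in transgenic and -4.15 in control hearts. Several of these also act in mitosis, and all 7 markers of cycling cells were lower in adults in both genotypes. The summed level of these cycling markers (log2 of the summed linear values) was 7.36 to 8.65 in transgenic adults and 7.48 to 8.27 in control adults. It was 12.58 to 12.63 and 12.51 to 12.61 in transgenic and control newborns.

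Of the 11 trafficking genes 1 was lower (Gpr161) and 1 higher (Rab23) in transgenic hearts, and 5 were lower and 1 (Adcy3) higher in control hearts. The 15 further IFT and BBSome genes moved both ways with age. In transgenic hearts 3 were higher (Mkks, Lztfl1 and Bbip1) and 2 lower (Wdr34 and Kifap3), and in control hearts 1 was higher (Mkks) and 2 lower (Wdr34 and Kif3a). Mkks, the third chaperonin-like protein of BBSome assembly, averaged 10.45 in transgenic and 10.74 in control adults, against 9.57 and 9.72 in transgenic and control newborns. Of 8 RFX and FOXJ1 regulators 3 were lower in transgenic hearts and 1, Rfx7, in control hearts. Of 19 motile axoneme genes 3 were higher in each genotype, and 0 lower in transgenic and 1 lower in control hearts.

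Cell markers moved with age as well. All 9 macrophage markers were higher in adults in both genotypes and all 7 epicardial markers lower. Of the 10 fibroblast markers 1 was higher and 4 lower in each genotype, and their summed level was 14.37 to 14.70 in transgenic adults and 13.70 to 14.41 in control adults, against 14.54 to 14.89 and 14.61 to 14.75 in newborns. The part of these markers in the age differences of the IFT and BBSome genes was not tested.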

How the data were processed

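Expression was measured on 11 Affymetrix arrays of mouse left ventricle. The log2 values were deposited by the authors for 45101 probe sets per array. The submitters' processing notes name RMA, affy and limma, with no version or role. Nearly equal array medians mean that a shift of most genes in 1 direction would not show. Of the probe sets, 34958 had 1 gene symbol in the platform annotation; the one with the highest mean stood for each of 18194 genes.

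With limma 3.58.1 (R 4.3.3), lmFit and eBayes were run on 1 mean per group over the 11 arrays, with 7 residual and 3.85 prior degrees of freedom, and 2-sided tests adjusted by Benjamini-Hochberg within each of 5 comparisons over all genes. The shared spread averages over the wider adult and narrower newborn scatter. The fit was tested on simulated data. The members, gene lists and alternatives were chosen with earlier results of these data known. Members were described by complex: those called between genotypes and the one with the smallest p of each complex are given per array. Low values were filtered at the 40th percentile of an array on at least 2 arrays. Promoter windows came from RefSeq (GRCm38.p6); 28 members had one. The motif, the differences within replicates 1 and 2 and within replicate 3, and the fit of all probe sets were chosen after seeing the data. The number of arrays limits the precision, and p-values set a difference against a spread between arrays that the 4 groups share. For newborns this is not the spread of the newborn arrays alone.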

Additional observations from a re-analysis of the deposited data

How the results depend on the processing

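The count of IFT and BBSome genes called between transgenic and control adults (5 as reported) was 9 with adult replicate 3 as a batch factor, 3 with an intensity trend and robust variance, 1 with only the groups compared in the fit, and 0 with the atrial markers as a covariate. Over the fits that left out 1 array it ran from 1 (without control adult replicate 2) to 9 (without transgenic adult replicate 3). It was 3 with all probe sets tested side by side, an alternative chosen after seeing the data. Ift81 was called in 22 of 23 alternatives, Dync2h1 in 18, Ift74 in 17, Ift57 in 8 and Ift46 in 5; all kept their direction. In newborns the count was 0 in every alternative. For the difference between the ages it was 0 as reported and 1 (Ift81) with the batch factor, without the adult arrays of high 18S signal and with array weights, and 0 to 1 when 1 array was left out. For age in control hearts it was 9 as reported, 18 both without the high 18S arrays and with array weights, and 4 to 16 when 1 array was left out (4 without control newborn replicate 1, 5 without control newborn replicate 2, 16 without transgenic adult replicate 3). For age in transgenic hearts it was 7 as reported, 1 (Ift74) with the atrial covariate and 4 to 9 when 1 array was left out. Why these counts moved was not tested, beyond the smaller number of arrays in some fits. The atrial covariate, which itself differed with age, raised the SE of Ift81 between adults from 0.37 to 0.52. It raised that of Ttc8 with age in transgenic hearts from 0.14 to 0.27. The correlation of same-numbered deviations from the group means was 0.31, -0.06 and 0.45 in adults, against -0.42 to 0.31 for unlike numbers. In newborns it was 0.18 and -0.15. With 2 control newborns their deviations mirror each other, so the newborn values cannot show or exclude a pairing. The highest adult value is that of the replicate 3 arrays, which share the high 18S signal. Whether replicate numbers pair the arrays is not settled by these values. With the replicate block 6 genes were called between adults, and 0, 0, 10 and 7 in the other comparisons in the order above. The newborn difference of Bbs10, 0.10 as reported, was -0.00264 without control newborn replicate 1 and 0.193 without control newborn replicate 2. Single genes were followed where they were called or had the smallest p of their complex in a comparison; over all their alternatives a call was lost in 114 cases and gained in 13, each without a change of direction.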
